A study of Mus musculus with 24 samples.

Results

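The 34 genes described here are products or regulators of bone, osteoclasts and cartilage, taken by symbol from the 23420 entries of a table of gene counts for whole mouse cochlea. They comprise 13 osteoblast genes, 4 osteocyte genes, 10 genes of osteoclasts and their matrix enzymes, 3 genes of the RANK system and 4 cartilage genes, with collagens left out. Each of the 34 had an entry, and 33 passed the filter on low counts. Matn3, a cartilage matrilin, did not pass, with 45 counts in all and 0 counts in 8 of 24 libraries, and it was not tested.

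Messenger RNA was counted in 24 libraries, 3 for each of 8 groups lettered a, b and c, from CBA/Sca mice aged 12 weeks. Mice were adrenalectomized (ADX), which removes the adrenal source of corticosterone, or sham-operated. The noise covered 6 to 12 kHz, lasted 1 h and had a level of 100 dB SPL, and it or a sham exposure was given by night (from ZT15, counted in h after lights-on) or by day (from ZT3). The 8 groups are night noise ADX, night noise sham-operated, night sham exposure ADX, night sham exposure sham-operated, and the same 4 by day. The design text places collection 2 h after the noise, while the sample labels read ZT23 for night and ZT11 for day, and neither source settles which holds. The study asks how glucocorticoids bear on the difference between day and night noise. Nothing in the labels states that libraries of a group come from separate animals, so p-values measure the spread between these samples, which may be technical.

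The cochlea is encased in the bony otic capsule, and a library of whole cochlea carries RNA of bone, marrow and cartilage remnants beside that of the sensory tissue. Osteoblasts lay down and mineralize matrix and become osteocytes within it, while osteoclasts, which form by fusion of myeloid precursors, dissolve it. Osteoblast-lineage cells control osteoclasts through the ligand RANKL (Tnfsf11), which acts on its receptor RANK (Tnfrsf11a) and is blocked by the decoy osteoprotegerin (Tnfrsf11b). In mice osteoprotegerin is made at high levels in the inner ear, and its loss leads to abnormal remodelling of the otic capsule and hearing loss.

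Library totals ran from 18894996 to 36108962 counts, and the 34 genes together took 0.536% to 0.747% of a library. All 14 cochlear marker genes checked passed the filter, with summed levels of 5026 to 8125 CPM (counts scaled to 1000000 per library), so the tissue label held. Bone marrow was present too: neutrophil and myeloid marrow genes summed to 6679 to 13537 CPM. Night noise ADX a carried pituitary transcripts, with Gh, Prl and Pomc summing to 9643 CPM, and night noise sham-operated b and day sham exposure sham-operated b carried the most cerebellar transcripts. In 8 glucocorticoid-induced genes chosen after the data were seen, 4 libraries went against their surgery label. The genes are Fkbp5, Tsc22d3, Zbtb16, Hif3a, Sgk1, Errfi1, Per1 and Ddit4. The last 4 also rose with noise when pooled (log2 1.00, 0.80, 0.63 and 0.53, adjusted p under 0.05 in edgeR). For noise by day in ADX mice these 4 alone passed, at log2 1.32, 1.06, 1.30 and 1.11. The mean log2 level of all 8 genes relative to all libraries was 0.235 to 0.439 in day noise ADX, against -0.270 to 0.469 in day noise sham-operated libraries. In night noise ADX it was 0.700 in library a and -0.353 and -0.672 in libraries b and c, against 0.549 to 0.740 in night noise sham-operated libraries. After sham exposure the ADX libraries lay lower, at -0.831 to -0.438 by night, against 0.287 to 0.589 in sham-operated libraries, and at -0.873 to -0.721 by day, against -0.0226 to 0.192 in sham-operated libraries. The surgery label of the 3 day noise ADX libraries and of night noise ADX a is therefore in doubt, and their groups are named below by the label. The part of noise itself in the level of the list in these libraries was not tested. Pooled counts are given with and without these libraries, and so are the values by night after noise in ADX mice that turn on library a. The noise comparison by day in ADX mice rests wholly on the doubted group.

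Per kilobase of exon, the bone matrix genes were the most abundant of the 34. Spp1, which encodes the matrix and cytokine-like protein osteopontin, led with a mean level of 1289 CPM per kb over the 24 libraries, followed by the collagen-binding Sparc at 389.9, bone sialoprotein Ibsp at 268, the osteocyte protein Dmp1 at 149 and osteocalcin Bglap at 142 CPM per kb. The osteoclast enzymes Acp5 (tartrate-resistant acid phosphatase), Ctsk (cathepsin K) and Mmp9 had 88.3, 85.4 and 82.2 CPM per kb. Osteoprotegerin, at 53.1 CPM per kb, stood well above its ligand Tnfsf11 at 0.7499 and the receptor Tnfrsf11a at 1.19 CPM per kb. Acan, the aggrecan core protein, was the most abundant cartilage gene at 11.9 CPM per kb, and Matn3 and Calcr, the calcitonin receptor, were the scarcest genes of the list at 0.0255 and 0.149 CPM per kb. The remaining genes not described further ran, over the 24 libraries, from 1158 to 1817 CPM for Sparc, 53.3 to 76.9 CPM for the parathyroid hormone receptor Pth1r, 43.3 to 71.8 CPM for the osteoblast regulator Runx2 and 37.04 to 69.6 CPM for Sp7, which acts after it. Ifitm5, a membrane protein of mineralizing osteoblasts, ran from 5.67 to 12.3 CPM, osteomodulin Omd from 20.01 to 34.4 CPM, the pyrophosphate-forming Enpp1 from 33.1 to 48.98 CPM, and Comp, a pentameric protein of cartilage matrix, from 4.87 to 11.8 CPM. Bglap (chr3:88383501-88384464) and Bglap2 (chr3:88377736-88378699, GRCm38 as for all positions) are near copies: 292 of 391 stretches of 50 bases of the Bglap transcript, or 74.7%, occur unchanged in Bglap2, so with reads of 50 bases the split of counts between them is uncertain.

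**Figure D1:**
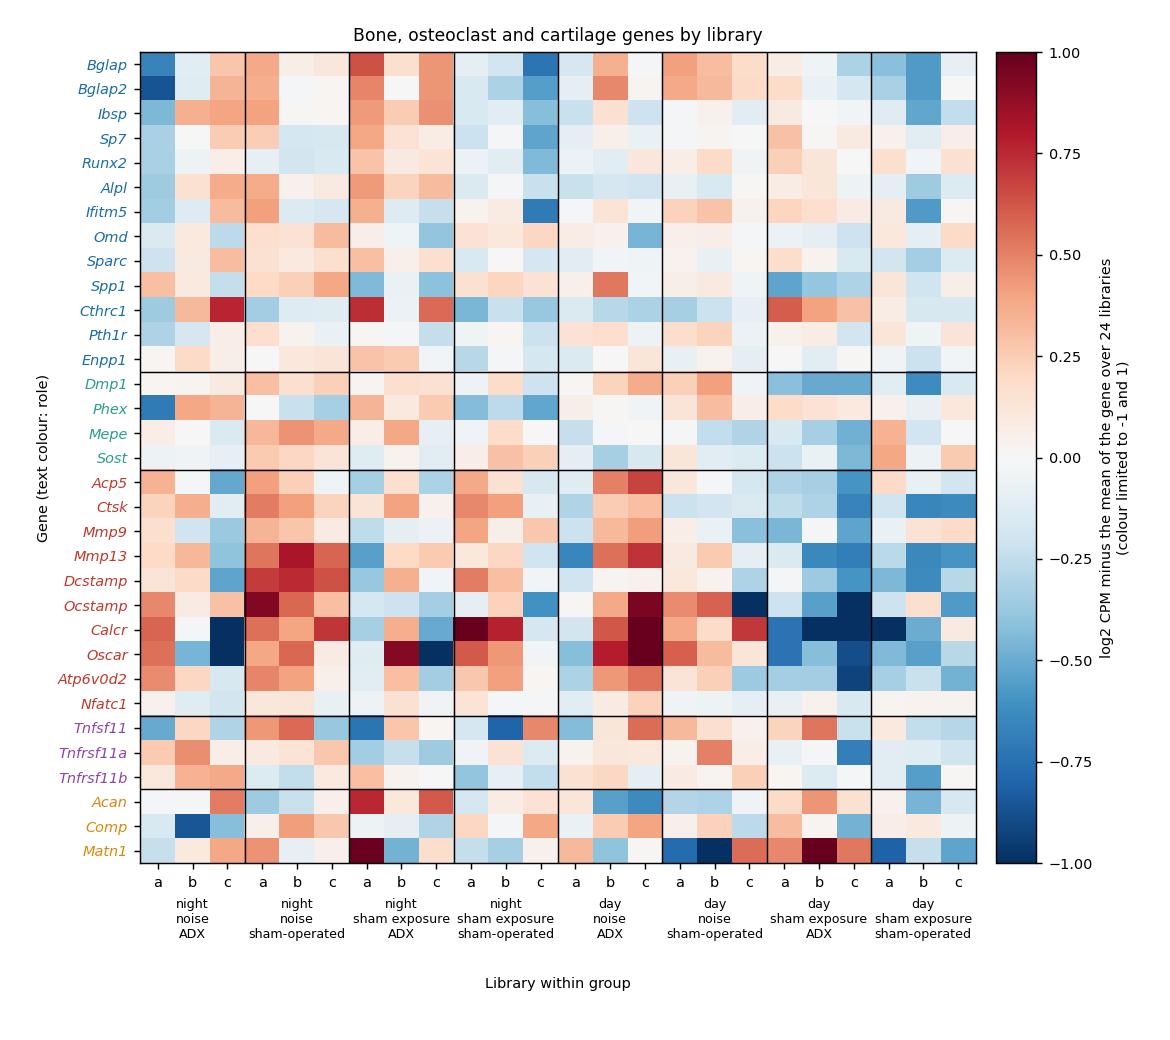
Heat map of the 33 tested genes (down, grouped by role and coloured by it: osteoblast blue, osteocyte teal, osteoclast red, RANK system purple, cartilage orange) in the 24 libraries (across, 3 per group), as log2 CPM minus the mean of each gene, with the colour limited to -1 and 1. Night noise ADX a is pale to dark blue over most osteoblast genes, and the day sham exposure ADX libraries are blue over most osteoclast genes.

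Most osteoblast genes varied together between libraries of a group, and so did osteoclast genes. After each group's mean was taken away, the median Pearson correlation over the 24 libraries was 0.584 among the 78 pairs of osteoblast genes, 0.654 among the 45 pairs of osteoclast genes and -0.0342 between osteoblast and osteoclast genes. It was 0.337 among the 6 pairs of osteocyte genes, -0.0664 among the 3 pairs of RANK system genes and -0.173 among the 3 pairs of cartilage genes. Pairs ran from -0.589 to 0.957 among osteoblast genes and from 0.159 to 0.867 among osteoclast genes. Spp1, listed with the osteoblast genes, ran from -0.589 with Cthrc1 to 0.457 with Omd among them. With osteoclast genes it ran from -0.102 for Ocstamp to 0.507 for Oscar. These values describe libraries that share their depth and dissection and carry no test. Where genes of a role moved together, counts of genes with a shared direction below are not counts of separate evidence. Night noise ADX a, the library with pituitary transcripts, had the lowest level of its group in 11 of the 13 osteoblast genes, among them Bglap at 53.6 CPM, against 78.6 and 103 CPM in libraries b and c, and Ibsp at 398 CPM, against 695 and 713 CPM.

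The starts of 4 genes that changed in at least 1 comparison, Spp1, Dmp1, Mmp13 and Mepe, hold letters known from bone gene promoters, and the 250 bases before a start of each are shown for that reason. Capitals mark matches to the Runx site ACCACA, bound by the osteoblast regulator Runx2, and to the AP-1 site TGANTCA, both searched on both strands, and to TATAAA, searched on the forward strand. No match overlaps another. The sequences are the plus strand of RefSeq on GRCm38.p6, and the windows end at the base before the start.
Spp1, chr5:104434861-104435110: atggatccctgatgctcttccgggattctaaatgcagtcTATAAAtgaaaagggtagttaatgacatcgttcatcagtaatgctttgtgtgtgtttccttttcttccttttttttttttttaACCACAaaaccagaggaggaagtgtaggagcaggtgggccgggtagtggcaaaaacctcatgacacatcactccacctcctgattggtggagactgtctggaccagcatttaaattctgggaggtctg
Dmp1, chr5:104202367-104202616: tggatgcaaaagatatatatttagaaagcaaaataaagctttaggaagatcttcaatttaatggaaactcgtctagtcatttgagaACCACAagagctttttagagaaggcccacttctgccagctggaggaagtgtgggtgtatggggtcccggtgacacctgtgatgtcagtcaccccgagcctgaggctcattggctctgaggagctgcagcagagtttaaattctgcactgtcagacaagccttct
Mmp13, chr9:7272264-7272513: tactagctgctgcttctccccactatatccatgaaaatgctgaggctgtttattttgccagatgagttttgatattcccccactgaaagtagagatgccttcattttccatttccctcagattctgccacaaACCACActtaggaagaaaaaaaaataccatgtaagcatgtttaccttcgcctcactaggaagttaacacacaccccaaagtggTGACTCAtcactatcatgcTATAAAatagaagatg
Mepe, chr5:104325079-104325328: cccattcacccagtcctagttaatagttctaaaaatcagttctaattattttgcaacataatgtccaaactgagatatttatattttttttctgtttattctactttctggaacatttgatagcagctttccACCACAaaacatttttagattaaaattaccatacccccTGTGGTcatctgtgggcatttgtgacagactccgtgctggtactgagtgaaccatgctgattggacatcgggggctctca
The Runx letters begin 128 bases before the start of Spp1, 164 before that of Dmp1, 118 before that of Mmp13, and 118 and 80 before that of Mepe. Mmp13 also holds the AP-1 letters 35 bases before its start. TATAAA begins 16 bases before the start of Mmp13 and 211 before that of Spp1. Alpl, Acp5, Calcr, Ctsk, Sost and Tnfrsf11a, which also changed in at least 1 comparison, held none of the letters searched. Nor did another start of Spp1. A start was given for 24 of the 34 genes, in 32 entries, and 8 entries, or 25%, held the Runx letters, against 14% of 32851 promoters of the same length. The AP-1 letters stood in 1 entry, against 6.75% of all promoters, and TATAAA in 3, against 7.59%. The E-box CACGTG, searched as well, stood in 1 entry, an upstream start of Dmp1, against 6.02% of all promoters. A match is a description of these letters and says nothing of a factor's binding.

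Across the 8 groups as a whole, 8 of the 33 tested genes differed in edgeR's quasi-likelihood F-test with Benjamini-Hochberg adjustment over 16607 genes, against 8.7% of all genes tested. They were the osteoblast genes Spp1, Cthrc1 and Alpl, the osteocyte genes Dmp1, Sost and Mepe, and the osteoclast genes Ctsk and Dcstamp. The adjusted p ran from 0.00404 for Dmp1 to 0.0415 for Alpl. Without night noise ADX a the count was 14, for which the share of all genes called is not given. Without that library and the day noise ADX libraries it was 16, against 9.73% of all genes. Counts below from fits that left out a single library likewise lack that share and are not compared with it. The following comparisons use the same test, with log2 fold changes given with their standard error (SE), and levels in CPM per library in the order a, b, c. In bulk RNA, fewer cells of a type and less RNA per cell cannot be told apart.

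In ADX mice by day, the osteocyte gene Dmp1, the osteoblast gene Spp1 and the osteoclast genes Acp5 and Calcr were higher after noise, in the group whose surgery label is in doubt. None of the 33 tested genes passed the test in the other 3 comparisons of noise with sham exposure. By day in ADX mice 4 of 33 genes rose and 0 fell, against 4.02% of all genes in either direction (2.01% higher and 2.01% lower). The counts were 0 by day in sham-operated mice (0.247% of all genes), 0 by night in sham-operated mice (0.717%) and 0 by night in ADX mice (0.5%). At an unadjusted p under 0.05 these held 6, 8 and 4 of the 33 genes, against 8.31%, 8.41% and 10.2% of all genes. DESeq2 called 1, 0 and 1, against 0.741%, 1.26% and 1.1% of all genes, and limma voom 0 in each, against 0.277%, 1.53% and 0.415%. Over all 4 pairs of groups pooled, 5 genes rose with noise and 0 fell, against 4.81% of all genes (2.4% higher and 2.4% lower). They were Dmp1, the receptor Tnfrsf11a, Spp1, the osteoclast fusion gene Ocstamp and the collagenase Mmp13. Without the day noise ADX libraries the pooled count was 1, Tnfrsf11a, against 2.31% of all genes, an alternative chosen after seeing the data. Without these and night noise ADX a, likewise chosen, it was 0, against 2.28% of all genes. Each of 11 libraries, when left out alone, took the pooled count to 3 (Dmp1, Spp1 and Tnfrsf11a). These were day noise ADX b and c, day noise sham-operated a and b, night noise ADX a, night noise sham-operated a and b, day sham exposure ADX b and c, night sham exposure ADX a and night sham exposure sham-operated c. The share of all genes called in these 11 fits is not given.

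Dmp1 (chr5:104202613-104214102) encodes an acidic matrix protein of osteocytes that promotes mineralization and restrains Fgf23. By day in ADX mice it had 408, 474 and 523 CPM after noise, against 303, 285 and 286 CPM after sham exposure. By day in sham-operated mice it had 477, 538 and 395 CPM after noise, against 375, 262 and 364 CPM after sham exposure. In both day pairs all 3 noise libraries lay above all 3 sham exposure libraries. The log2 fold change was 0.68 ± 0.123 (SE, adjusted p = 0.00352) in ADX mice and 0.50 ± 0.123 (SE, adjusted p = 0.126) in sham-operated mice. By night it had 411, 414 and 432 CPM after noise and 413, 454 and 449.8 CPM after sham exposure in ADX mice. In sham-operated mice by night it had 500.1, 452 and 477 CPM after noise and 391.9, 461 and 352 CPM after sham exposure. The night groups overlapped in both. Pooled over the 4 pairs, Dmp1 rose by 0.34 ± 0.0615 on the log2 scale (SE, adjusted p = 0.00145). Without the day noise ADX libraries the pooled change was 0.22 ± 0.0691 (SE, adjusted p = 0.12).

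Spp1 (chr5:104435118-104441050) had 2168, 3016 and 2046 CPM after day noise in ADX mice, against 1452, 1598 and 1684 CPM after sham exposure. The noise libraries all lay higher, with library b far above the others, and the log2 fold change was 0.61 ± 0.138 (SE, adjusted p = 0.0174). In sham-operated mice by day it had 2173, 2217 and 2031 CPM after noise, against 2277, 1818 and 2170 CPM after sham exposure. By night it had 2568, 2240 and 1769 CPM after noise and 1538, 1989 and 1570 CPM after sham exposure in ADX mice. In sham-operated mice by night the levels were 2399, 2470 and 2730 CPM after noise and 2324, 2425 and 2312 CPM after sham exposure. These 3 pairs overlapped. The pooled rise was 0.28 ± 0.0688 on the log2 scale (SE, adjusted p = 0.0187). It was 0.23 ± 0.0701 (SE, adjusted p = 0.0863) without the 3 libraries with pituitary or cerebellar transcripts. Without the day noise ADX libraries it was 0.17 ± 0.0676 (SE, adjusted p = 0.265).

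Among the osteoclast genes, all 10 had a positive fold change after day noise in ADX mice, with a median log2 fold change of 0.79, against -0.01 for all genes, and 2 passed the test. Unadjusted p was under 0.05 for 8 of the 10, against 23.5% of all genes. The osteoclast genes varied together between libraries (median correlation 0.654), so the 10 are not separate evidence. Acp5 (chr9:22126727-22135711) had 161, 248 and 279 CPM after noise, against 141, 139 and 116 CPM after sham exposure, and the groups did not overlap. It rose by 0.80 ± 0.213 on the log2 scale (SE, adjusted p = 0.043). Calcr (chr6:3685680-3764714) had 0.438, 0.768 and 1.14 CPM after noise, against 0.299, 0.125 and 0.193 CPM after sham exposure, again without overlap. It rose by 1.91 ± 0.5201 on the log2 scale (SE, adjusted p = 0.043), from few reads, since the whole table holds 357 counts of it. Day noise ADX a was the lowest noise library in both genes. The proton pump subunit Atp6v0d2 had a log2 fold change of 0.79 ± 0.228 (SE, adjusted p = 0.0555), and the receptor Oscar one of 1.38 ± 0.448 (SE, adjusted p = 0.0809). Ctsk and Mmp9, a gelatinase that neutrophils make too, had log2 fold changes of 0.51 ± 0.174 (SE, adjusted p = 0.096) and 0.52 ± 0.168 (SE, adjusted p = 0.0824). The smallest change of the 10 was that of Nfatc1, the transcription factor that drives osteoclast formation, at 0.14 ± 0.0811 (SE, adjusted p = 0.307).

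Marrow and macrophage genes also lay higher in these libraries. All 12 neutrophil and myeloid marrow genes had positive fold changes, none of which passed the test, and summed to 7474 to 13537 CPM after day noise in ADX mice, against 6679 to 9078 CPM after sham exposure. Of 8 macrophage genes 4 rose (Aif1, C1qa, C1qb and C1qc), with the list summing to 605 to 772 CPM after noise, against 519 to 529 CPM after sham exposure. The erythroid genes, with 6 of 10 tested and none past the test, summed to 13260 to 15287 CPM after noise, against 9190 to 11474 CPM after sham exposure. Their part in the change of the osteoclast genes was not tested. The count of bone, osteoclast and cartilage genes that passed also turned on single libraries: leaving out day noise ADX a gave 12, leaving out day noise ADX b or day sham exposure ADX a gave 1, and it was 2 without day noise ADX c, day sham exposure ADX b or day sham exposure ADX c. The call of Dmp1 held when any of these 6 libraries was left out, that of Spp1 in 3 of the 6 fits, and those of Acp5 and Calcr without day noise ADX a alone. The counts of the 6 fits are given without the share of all genes called in them. Whether the calls over all genes moved alike is not shown here.

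In the other noise comparisons the osteoclast genes had median log2 fold changes of 0.34 by day in sham-operated mice, 0.08 by night in sham-operated mice and 0.04 by night in ADX mice. In the last of these 6 of 10 were positive. Without night noise ADX a, 8 of 10 were negative there (median -0.12, none past the test). Acp5 had 189, 172 and 154 CPM after day noise in sham-operated mice, against 199, 166 and 154 CPM after sham exposure, and by night 232, 206 and 169.9 CPM after noise, against 227, 194 and 156 CPM after sham exposure. In ADX mice by night it had 222, 174 and 123 CPM after noise, against 139, 196 and 140.4 CPM after sham exposure. The groups overlapped in all 3. Calcr likewise had 0.649, 0.567 and 0.812 CPM after day noise in sham-operated mice, against 0.2102, 0.352 and 0.532 CPM after sham exposure, with each noise library higher. By night it had 0.7298, 0.654 and 0.818 CPM after noise and 1.51, 0.8498 and 0.444 CPM after sham exposure in sham-operated mice. In ADX mice by night it had 0.746, 0.492 and 0.232 CPM after noise and 0.395, 0.641 and 0.351 CPM after sham exposure. The night groups overlapped.

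Ocstamp and Mmp13 passed only when the 4 pairs were pooled. Ocstamp (chr2:165393760-165400405), a membrane protein needed for osteoclast fusion in mice, had a lowest, median and highest level of 0.361, 1.06 and 1.52 CPM in the 12 noise libraries, against 0.309, 0.683 and 0.927 CPM in the 12 sham exposure libraries. By night it had 1.10, 0.836 and 0.965 CPM after noise in ADX mice, against 0.699, 0.683 and 0.623 CPM after sham exposure, and in sham-operated mice 1.496, 1.18 and 0.974 CPM after noise, against 0.739, 0.927 and 0.518 CPM after sham exposure. By day it had 0.797, 1.02 and 1.52 CPM after noise in ADX mice, against 0.684, 0.543 and 0.309 CPM after sham exposure, and in sham-operated mice 1.09, 1.19 and 0.361 CPM after noise, against 0.683, 0.881 and 0.532 CPM after sham exposure. The noise libraries were all higher in 3 of the 4 pairs, and by day in sham-operated mice noise library c lay below all 3 sham exposure libraries, while libraries a and b lay above them. Ocstamp rose by 0.68 ± 0.186 on the log2 scale (SE, adjusted p = 0.0353). Mmp13 (chr9:7272514-7283331), a collagenase made in bone by osteoblasts and osteocytes as well as by hypertrophic cartilage, had 74.4, 90.3 and 76.8 CPM after night noise in sham-operated mice, against 55.4, 59.5 and 44.8 CPM after sham exposure. By day it had 54.7, 61.5 and 48.3 CPM after noise in sham-operated mice, against 42.7, 32.9 and 34.1 CPM after sham exposure. The noise libraries were all higher in both pairs of sham-operated groups. In ADX mice by day it had 32.8, 75.2 and 84.9 CPM after noise, against 46.6, 32.9 and 31.9 CPM after sham exposure, and by night 58.9, 64.5 and 38.9 CPM after noise, against 35.3, 58.95 and 61.5 CPM after sham exposure. Library a after day noise lay among the sham exposure libraries. The pooled rise of Mmp13 was 0.51 ± 0.139 (SE, adjusted p = 0.038). The calls of both genes were lost without the day noise ADX libraries, and the call of Ocstamp held in 9 and that of Mmp13 in 8 of the 24 fits that each left out 1 library. Without the day noise ADX libraries the adjusted p was 0.265 for Ocstamp and 0.108 for Mmp13.

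Of the 5 genes called for noise when pooled, the RANK receptor was the one whose call held without the day noise ADX libraries. Tnfrsf11a (chr1:105780718-105847981) had 8.404, 9.69 and 7.33 CPM after night noise in ADX mice, against 5.503, 5.98 and 5.49 CPM after sham exposure. In sham-operated mice by day it had 7.18, 9.96 and 7.36 CPM after noise, against 6.51, 6.43 and 6.11 CPM after sham exposure. In these pairs and by day in ADX mice, with 7.17, 7.56 and 7.54 CPM after noise, against 6.67, 6.93 and 4.36 CPM after sham exposure, every noise library was higher. By night in sham-operated mice the groups overlapped, with 7.52, 7.71 and 8.45 CPM after noise and 6.83, 7.76 and 6.37 CPM after sham exposure. None of the 4 pairs passed the test alone, and the adjusted p was lowest by night in ADX mice (log2 fold change 0.58 ± 0.152 SE, adjusted p = 0.111). Pooled, Tnfrsf11a rose by 0.36 ± 0.0762 on the log2 scale (SE, adjusted p = 0.00615). Without the day noise ADX libraries the rise was 0.37 ± 0.09203 (SE, adjusted p = 0.0349), and 0.37 ± 0.0975 (SE, adjusted p = 0.0508) without night noise ADX a as well. The ligand Tnfsf11 ran from 0.927 to 2.397 CPM over the 24 libraries with a pooled log2 change of 0.13 ± 0.169 (SE, adjusted p = 0.756). The decoy Tnfrsf11b, at 101 to 192 CPM, had a pooled change of 0.19 ± 0.0634 (SE, adjusted p = 0.0926).

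**Figure D2:**
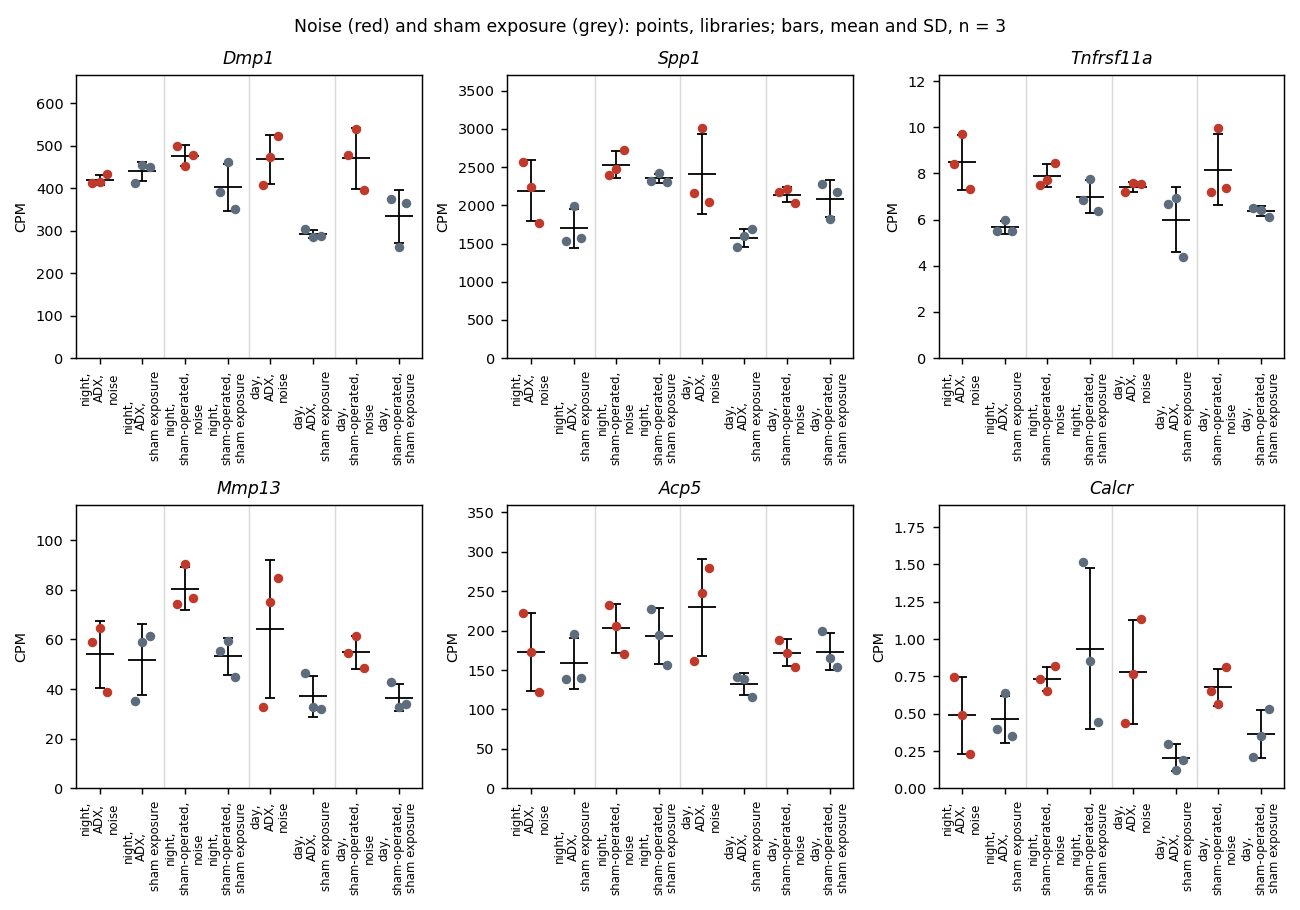
CPM (linear axes from 0) of Dmp1, Spp1, Tnfrsf11a, Mmp13, Acp5 and Calcr in the 8 groups, noise in red left of its sham exposure in grey, with points for libraries and bars for mean and SD (n = 3). For Dmp1 the 2 day pairs separate and the night pairs do not, and the noise libraries of Tnfrsf11a lie at 7.17 CPM or above in every group.

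The remaining osteoblast genes showed no common direction with noise. By night in sham-operated mice all 13 osteoblast genes had positive fold changes (median log2 0.22, none past the test), whereas by night in ADX mice 11 of 13 were negative (median -0.14, none past the test). There 7 of 13 were negative without night noise ADX a (median -0.01, none past the test). Bglap had log2 fold changes of 0.50 ± 0.207 (SE, adjusted p = 0.487) by night and 0.65 ± 0.208 (SE, adjusted p = 0.337) by day in sham-operated mice, and of -0.55 ± 0.206 (SE, adjusted p = 0.336) by night in ADX mice. The last value was -0.33 ± 0.198 (SE, adjusted p = 0.576) without night noise ADX a. The genes Runx2, Sp7, Alpl, Ifitm5, Omd, Pth1r, Sparc and Enpp1 did not pass the test for noise in any pair or pooled. Among cartilage genes, Acan had 69.8 ± 21.2 CPM after day noise in ADX mice, against 104 ± 11.6 CPM after sham exposure (mean ± SD, n = 3 each), a log2 fold change of -0.58 ± 0.2001 (SE, adjusted p = 0.0977). Matn1, with the largest fold change of the cartilage genes in any pair, is described with adrenalectomy, and Comp did not pass.

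Of the wider bone pathways, which were listed with earlier results of these data known, 3 of 25 bone formation genes, 3 of 20 osteoclast pathway genes and 0 of 18 cartilage genes passed the pooled noise test, against 4.81% of all genes. The mineralization inhibitor Mgp rose to 139 ± 36.4 CPM after noise, against 103 ± 17.98 CPM after sham exposure (mean ± SD, n = 12 each), by 0.42 ± 0.0848 on the log2 scale (SE, adjusted p = 0.0042). The vitamin D receptor Vdr rose by 0.31 ± 0.0629 (SE, adjusted p = 0.00437), and by 0.71 ± 0.127 (SE, adjusted p = 0.00349) by day in ADX mice. The Wnt coreceptor Lrp6 fell by 0.17 on the log2 scale (adjusted p = 0.02). On the osteoclast side the AP-1 subunit Fos, which osteoclasts need but many cells induce, rose by 2.96 ± 0.214 (SE, adjusted p = 2.14e-08). It passed in each of the 4 pairs, with log2 fold changes of 3.15 ± 0.441 by night and 3.05 ± 0.423 by day in ADX mice, and 3.53 ± 0.427 by night and 2.13 ± 0.424 by day in sham-operated mice (SE). The call by day in sham-operated mice held in 1 of the 6 fits that each left out 1 library of the pair. Sbno2, which takes part in osteoclast fusion in mice, and the macrophage growth factor Csf1 rose by 0.21 ± 0.0361 (SE, adjusted p = 0.000806) and 0.15 ± 0.0423 (SE, adjusted p = 0.0471). By day in ADX mice the cartilage gene Scrg1 rose as well (0.70 ± 0.186 SE, adjusted p = 0.0391), while Lrp6 fell and Vdr, Fos and Sbno2 rose. The calls of Scrg1 and Lrp6 by day in ADX mice held in 2 of the 6 fits that each left out 1 library of the pair, and the pooled call of Csf1 in 5 of 24. Without the day noise ADX libraries the pooled adjusted p was 0.0124 for Mgp and 1.31e-06 for Fos, and Vdr (0.315), Lrp6 (0.251), Sbno2 (0.1) and Csf1 (0.26) no longer passed.

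With adrenalectomy Sost was lower and Cthrc1 higher over the 4 pairs of groups pooled, and Cthrc1 was higher by night after sham exposure. The pooled comparison held 1 of 33 genes higher and 1 lower, against 3.2% of all genes in either direction (1.68% higher and 1.52% lower). By night after sham exposure 1 gene was higher and 0 lower, against 1.58% of all genes (1.11% higher and 0.47% lower). The other counts were 0 by day after sham exposure (0.0422%), 0 by night after noise and 0 by day after noise (0% of all genes in each). At an unadjusted p under 0.05 these last 3 held 8, 9 and 0 of the 33 genes, against 11.3%, 8.55% and 11.7% of all genes. DESeq2 called 1, 0 and 0, against 1.08%, 0.0903% and 0.012% of all genes, and limma voom 1, 0 and 0, against 0.674%, 0.00602% and 0%. By night after noise the count was 3 (Phex, Cthrc1 and Comp) without night noise ADX a. By day after sham exposure it was 1 without day sham exposure sham-operated b. The share of all genes called is not given for either fit. Pooled without the day noise ADX libraries 3 genes were higher and 5 lower, against 7.39% of all genes, and these were Cthrc1, Sost, Acan, Comp, Mmp9, Omd, Spp1 and Tnfrsf11b. Without night noise ADX a as well, 8 were higher and 8 lower, against 11.9% of all genes. The libraries left out were picked by genes that adrenalectomy lowers, so these larger counts are not independent evidence. The pooled count was 7 without night noise ADX a and 4 without day noise ADX b, with Sost and Cthrc1 in both. Both libraries were among those picked, and the share of all genes called is not given for these fits. Without night noise ADX a, Phex (log2 0.28 ± 0.0425 SE, adjusted p = 0.000464), Ibsp, Alpl and Tnfrsf11b were also higher and Spp1 lower.

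Sost (chr11:101962458-101967015) encodes sclerostin, the osteocyte inhibitor of Wnt signalling and so of bone formation. By night after noise it had 104, 105 and 102 CPM in ADX mice, against 129, 124 and 118 CPM in sham-operated mice. After sham exposure by night it had 99.2, 110.5 and 99.7 CPM in ADX mice, against 113, 132 and 127 CPM in sham-operated mice. By day after sham exposure the levels were 92.95, 103 and 78.8 CPM in ADX mice and 141, 104 and 129 CPM in sham-operated mice. In these 3 pairs every ADX library lay below every sham-operated library. After day noise, with 100.5, 85.7 and 96.4 CPM in ADX mice and 117, 99.8 and 98.1 CPM in sham-operated mice, the groups overlapped. No single pair passed the test. The pooled log2 fold change was -0.28 ± 0.0509 (SE, adjusted p = 0.00501). It was -0.32 ± 0.0589 (SE, adjusted p = 0.00356) without the day noise ADX libraries.

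Cthrc1 (chr15:39076932-39087121) encodes a secreted protein that acts on osteoblast-lineage cells, and it is listed here with the osteoblast genes. By night after sham exposure it had 20.9, 12.1 and 18.5 CPM in ADX mice, against 9.11, 10.7 and 9.67 CPM in sham-operated mice, a rise of 0.81 ± 0.201 on the log2 scale (SE, adjusted p = 0.0455). This call was lost in 5 of the 6 fits that each left out 1 library of the pair, the exception being ADX b. By day after sham exposure it had 19.1, 16.6 and 15.4 CPM in ADX mice, against 13.2, 11.2 and 11.2 CPM in sham-operated mice. The ADX libraries were all higher in both sham exposure pairs. After night noise it had 9.82, 15.7 and 21.2 CPM in ADX mice and 9.85, 11.5 and 11.5 CPM in sham-operated mice, with the pituitary-carrying library a the lowest of all 6. After day noise it had 11.3, 10.3 and 10.04 CPM in ADX mice and 9.94, 10.8 and 11.9 CPM in sham-operated mice, and the groups overlapped. The pooled rise was 0.45 ± 0.101 (SE, adjusted p = 0.0179), and 0.61 ± 0.122 (SE, adjusted p = 0.00594) without the day noise ADX libraries.

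By night after sham exposure the osteoblast genes as a group lay higher in ADX mice: 11 of 13 had positive fold changes, with a median log2 of 0.37, against 0.00 for all genes, and 11 had an unadjusted p under 0.05, against 14.9% of all genes. The osteoblast genes varied together between libraries (median correlation 0.584), and Bglap and Bglap2 are near copies, so the 13 genes are not separate evidence. Cthrc1 alone passed the adjusted test. Bglap had 133, 95.01 and 116 CPM in ADX mice, against 79.4, 74.7 and 51.4 CPM in sham-operated mice, a log2 fold change of 0.74 ± 0.206 (SE, adjusted p = 0.0801). Ibsp had 729, 648 and 748 CPM in ADX mice, against 489, 505 and 405 CPM in sham-operated mice (log2 0.60 ± 0.167 SE, adjusted p = 0.0781). Every ADX library was above every sham-operated library in both genes. Alpl (log2 0.45 ± 0.123 SE, adjusted p = 0.0738), Runx2 (0.37 ± 0.102 SE, adjusted p = 0.0742) and the osteocyte phosphate regulator Phex (0.64 ± 0.175 SE, adjusted p = 0.0752) likewise separated. Spp1 ran the other way at -0.47 ± 0.138 (SE, adjusted p = 0.0884). The number of genes of the list past the threshold here was 8 with DESeq2, against 3.37% of all genes, and 10 with limma voom, against 7.48%. It was 3 in a fit of the pair alone, against 2.11% of all genes, 7 without the 3 libraries with pituitary or cerebellar transcripts, against 2.39%, and 0 without a filter on low counts, against 1.12%. B-cell precursor genes were also higher in these ADX libraries, with 6 of 9 past the test and summed levels of 769 to 993 CPM in ADX mice, against 498 to 551 CPM in sham-operated mice. Their part in this result was not tested.

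The 10 osteoclast genes had negative fold changes throughout in ADX mice by night, with median log2 values of -0.26 after sham exposure and -0.34 after noise, none of which passed the test. Without night noise ADX a the median after noise was -0.49, again with all 10 negative. By day after sham exposure 7 of 10 were negative (median -0.22), and after day noise all 10 were positive (median 0.27), none past the test in either. The 12 neutrophil and myeloid marrow genes were likewise all negative in the first 3 of these pairs and all positive after day noise, none past the test. By night their sums were 7209 to 8497 CPM in ADX mice, against 8259 to 10547 CPM in sham-operated mice after sham exposure, and 6681 to 8792 CPM in ADX mice, against 7919 to 9369 CPM in sham-operated mice after noise. By day they were 6679 to 9078 CPM in ADX mice, against 7766 to 9796 CPM in sham-operated mice after sham exposure, and 7474 to 13537 CPM in ADX mice, against 6748 to 9015 CPM in sham-operated mice after noise. Their part in the values of the osteoclast genes was not tested. The largest of the differences in osteoclast genes was Calcr by night after sham exposure, at 0.395, 0.641 and 0.351 CPM in ADX mice and 1.51, 0.8498 and 0.444 CPM in sham-operated mice, which overlapped (log2 -1.03 ± 0.449 SE, adjusted p = 0.271). In the RANK system, Tnfrsf11b had a pooled change of 0.21 ± 0.0634 (SE, adjusted p = 0.0713). Matn1 (chr4:130944385-130955475), a cartilage matrilin with 540 counts in all, had 1.16, 1.67 and 1.196 CPM by day after sham exposure in ADX mice, against 0.473, 0.705 and 0.576 CPM in sham-operated mice. The groups did not overlap, at a log2 fold change of 1.18 ± 0.386 (SE, adjusted p = 0.232). By night after sham exposure Matn1 had 1.64, 0.598 and 0.935 CPM in ADX mice and 0.704, 0.657 and 0.852 CPM in sham-operated mice. After night noise it had 0.707, 0.885 and 1.08 CPM in ADX mice and 1.13, 0.784 and 0.857 CPM in sham-operated mice. After day noise it had 1.04, 0.626 and 0.834 CPM in ADX mice and 0.487, 0.413 and 1.22 CPM in sham-operated mice. The ADX and sham-operated groups overlapped in these 3 pairs.

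**Figure D3:**
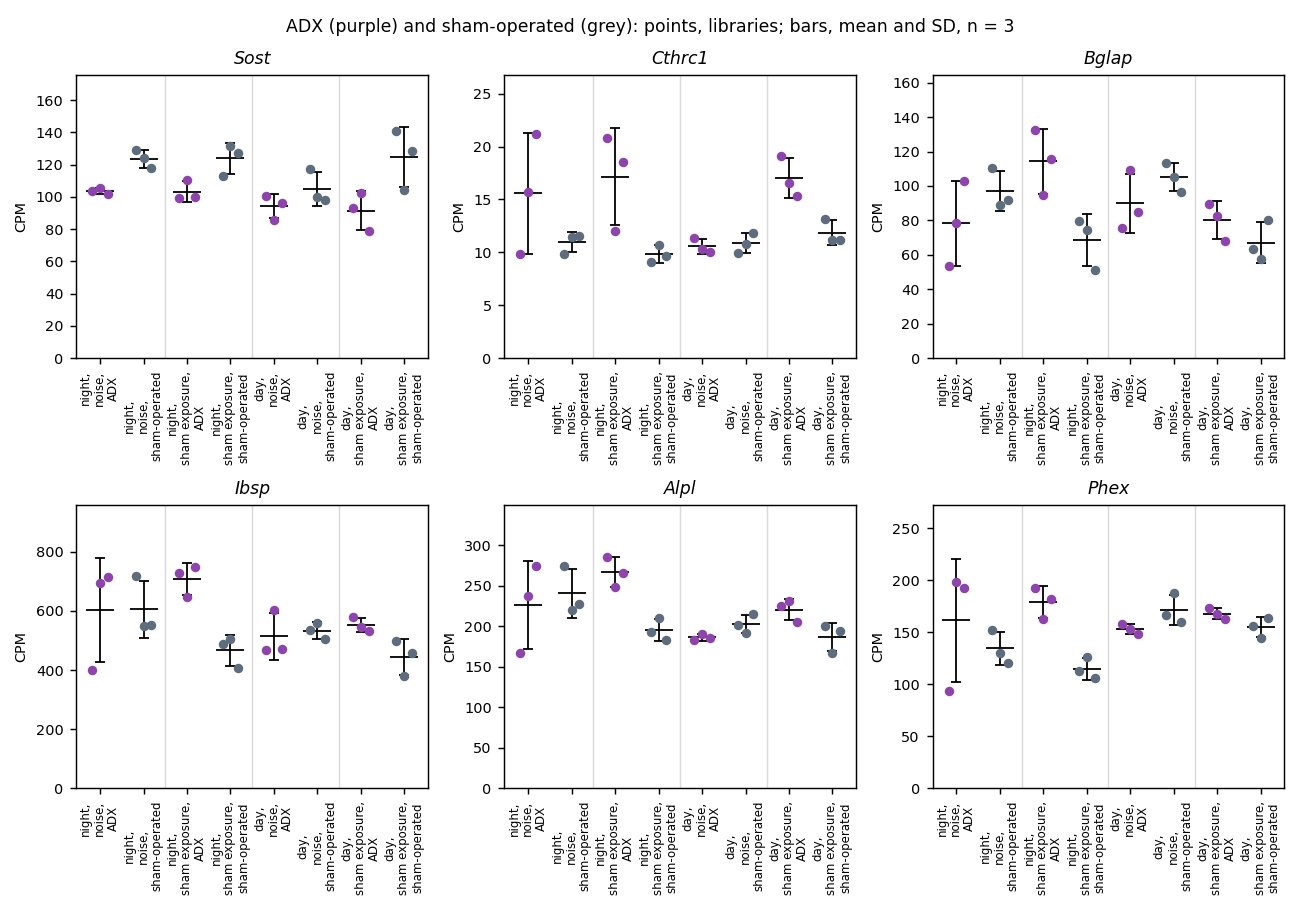
CPM (linear axes from 0) of Sost, Cthrc1, Bglap, Ibsp, Alpl and Phex in the 8 groups, ADX in purple left of sham-operated in grey, with points for libraries and bars for mean and SD (n = 3). Sost is lower in all ADX libraries of 3 of the 4 pairs, and the osteoblast genes separate most by night after sham exposure.

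Of the wider pathways, 3 of 25 bone formation genes fell with adrenalectomy when pooled, 0 rose, and 2 of 18 cartilage genes fell, against 1.52% of all genes lower. No osteoclast pathway gene of 20 passed when pooled in edgeR, and 8 were at an unadjusted p under 0.05, against 16.9% of all genes. Lrp4, a receptor that anchors sclerostin to bone cells, had 142 ± 12.9 CPM in ADX mice, against 165 ± 18.9 CPM in sham-operated mice (mean ± SD, n = 12 each), a log2 fold change of -0.22 ± 0.0346 (SE, adjusted p = 0.0031). Fgf23, the phosphate-lowering hormone of osteocytes, changed by -0.29 ± 0.0665 (SE, adjusted p = 0.0207) and Vdr by -0.25 ± 0.0629 (SE, adjusted p = 0.0312). The cartilage genes Scrg1 and Matn2 changed by -0.39 ± 0.0929 (SE, adjusted p = 0.023) and -0.34 ± 0.0862 (SE, adjusted p = 0.0312). By night after sham exposure Matn2 (-0.77 ± 0.172 SE, adjusted p = 0.0273) and Il34, another ligand of the macrophage growth factor receptor (-0.62 ± 0.142 SE, adjusted p = 0.0312), were lower in ADX mice, and these calls held in 2 and 1 of the 6 fits that each left out 1 library of the pair. Single libraries decided some of these calls, which held in 24 of 24 fits that each left out 1 library for Lrp4 and Fgf23, 21 for Scrg1, 13 for Vdr and 11 for Matn2. All 5 pooled calls held without the day noise ADX libraries, with adjusted p from 0.0017 for Lrp4 to 0.0138 for Matn2.

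Night libraries had more Ctsk, Mepe, Dcstamp and Alpl than day libraries when the 4 pairs were pooled: 4 of 33 genes were higher and 0 lower, against 6.01% of all genes in either direction (3.76% higher and 2.25% lower). In single pairs Mepe was higher by night after noise in sham-operated mice (1 of 33 genes, against 1.12% of all genes, 0.807% higher and 0.313% lower). No gene of the list passed by night against day after sham exposure in sham-operated mice (0.265% of all genes) or in ADX mice (0.0181%), or after noise in ADX mice (0.62%). At an unadjusted p under 0.05 these 3 held 7, 8 and 6 of the 33 genes, against 11.2%, 6.25% and 18.3% of all genes. DESeq2 called 1 in each, against 1.2%, 0.205% and 2.43% of all genes, and limma voom 1, 1 and 0, against 2.47%, 0.229% and 0.331%. Pooled without the day noise ADX libraries 6 genes passed, against 4.52% of all genes, and without night noise ADX a as well 7 were higher and 1 lower, against 5.5%; Ctsk, Mepe and Dcstamp were among both. After noise in ADX mice the count was 4 without night noise ADX a and 2 without day noise ADX a, with the share of all genes called not given.

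Ctsk (chr3:95499256-95509362) encodes cathepsin K, the protease with which osteoclasts degrade bone collagen. After sham exposure in sham-operated mice it had 175, 167 and 119 CPM by night, against 109, 79.9 and 80.5 CPM by day. In ADX mice after sham exposure it had 137, 166 and 129 CPM by night, against 105, 101 and 79.03 CPM by day. After noise in sham-operated mice the levels were 178, 167 and 146 CPM by night and 108, 109.9 and 114 CPM by day. Every night library lay above every day library in these 3 pairs. In ADX mice after noise the groups overlapped, with 146, 161 and 116 CPM by night and 102, 149 and 155 CPM by day. Pooled, Ctsk was 1.41-fold higher by night, a log2 fold change of 0.50 ± 0.0869 (SE, adjusted p = 0.00167). It was 0.65 ± 0.0937 (SE, adjusted p = 0.000975) without the day noise ADX libraries.

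Mepe (chr5:104325329-104338611), an osteocyte phosphoglycoprotein of the same gene cluster on chromosome 5 as Dmp1, Ibsp and Spp1, had 123, 134 and 127 CPM by night after noise in sham-operated mice, against 97.1, 82.3 and 79.2 CPM by day. The groups did not overlap, and the log2 fold change was 0.57 ± 0.127 (SE, adjusted p = 0.032). This call was lost in 5 of the 6 fits that each left out 1 library of the pair, the exception being day noise sham-operated a. After noise in ADX mice it had 102, 97.8 and 88.6 CPM by night and 83.5, 96.9 and 97.3 CPM by day, which overlapped. After sham exposure it had 103, 128 and 92.3 CPM by night in ADX mice, all above the 88.1, 77.5 and 70.04 CPM by day. In sham-operated mice after sham exposure it had 95.6, 111 and 98.2 CPM by night and 125, 85.6 and 97.5 CPM by day, with day library a the highest. Pooled, the log2 fold change was 0.27 ± 0.0635 (SE, adjusted p = 0.0148). Without the 3 libraries with pituitary or cerebellar transcripts it was 0.22 ± 0.0659 (SE, adjusted p = 0.0755).

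Dcstamp (chr15:39745930-39760938), the partner of Ocstamp in osteoclast fusion, had a lowest, median and highest level of 1.04, 1.79 and 2.53 CPM in the 12 night libraries, against 0.969, 1.28 and 1.62 CPM in the 12 day libraries. The highest night values were 2.44, 2.53 and 2.34 CPM after noise in sham-operated mice, above every other library of the study, against 1.62, 1.55 and 1.22 CPM by day. In ADX mice after noise the levels were 1.65, 1.72 and 1.04 CPM by night and 1.31, 1.53 and 1.55 CPM by day. After sham exposure they were 1.16, 1.92 and 1.48 CPM by night and 1.497, 1.17 and 1.003 CPM by day in ADX mice, and 2.15, 1.85 and 1.48 CPM by night and 1.103, 0.969 and 1.24 CPM by day in sham-operated mice. Night and day libraries separated in both pairs of sham-operated mice and overlapped in both of ADX mice. The pooled rise was 0.44 ± 0.118 on the log2 scale (SE, adjusted p = 0.0288), and 0.38 ± 0.134 (SE, adjusted p = 0.122) without the 3 libraries with pituitary or cerebellar transcripts. Alpl (chr4:137741733-137796384), the phosphatase that frees phosphate for mineral, had 167, 232 and 286 CPM by night, against 167, 197 and 231 CPM by day, on the same 3 measures. After noise it had 167, 237 and 275 CPM by night and 183, 190 and 186 CPM by day in ADX mice, and 275, 219.7 and 227 CPM by night and 202, 192 and 215 CPM by day in sham-operated mice. After sham exposure it had 286, 249 and 265 CPM by night and 225, 231 and 206 CPM by day in ADX mice, and 192, 210 and 183 CPM by night and 200, 167 and 194 CPM by day in sham-operated mice. Every night library was above every day library after noise in sham-operated mice and after sham exposure in ADX mice, and the libraries overlapped in the other pairs. Alpl rose by 0.22 ± 0.0616 (SE, adjusted p = 0.0408), and its adjusted p was 0.16 without the day noise ADX libraries. Without night noise ADX a, the library with pituitary transcripts, the rise of Alpl was 0.26 ± 0.0446 (SE, adjusted p = 0.00152). Of the 24 fits that each left out 1 library, 5 kept the call of Alpl and 19 kept that of Dcstamp, while those of Ctsk and Mepe held in all 24. The pooled count was 2, Ctsk and Mepe, without day sham exposure ADX c, day sham exposure sham-operated b or night sham exposure sham-operated a. For these fits too the share of all genes called is not given.

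The osteoclast genes tended to lie higher by night in 3 of the 4 pairs. All 10 had positive fold changes after sham exposure in sham-operated mice (median log2 0.56, none past the test) and in ADX mice (0.44, none past the test), and 9 of 10 did after noise in sham-operated mice (0.33, none past the test). After noise in ADX mice 9 of 10 were negative (median -0.22, none past the test). These comparisons share groups with those of noise and surgery and are not independent of them. The osteoblast genes had medians between -0.02 and 0.11 in the 4 pairs. The macrophage list did not follow the osteoclast genes, with 0 of 8 genes higher and 3 lower by night when pooled. The neutrophil and myeloid marrow genes summed to 6681 to 10547 CPM by night and 6679 to 13537 CPM by day. Mean sums by night and day were 9240 and 9100 CPM after sham exposure in sham-operated mice, and 7801 and 7749 CPM in ADX mice. After noise they were 8763 and 7889 CPM in sham-operated mice, and 7871 and 10616 CPM in ADX mice. The means were higher by night in the first 3 of these pairs and lower in the last, and the ranges overlapped in each. Their part in the values of the osteoclast genes by night was not tested.

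**Figure D4:**
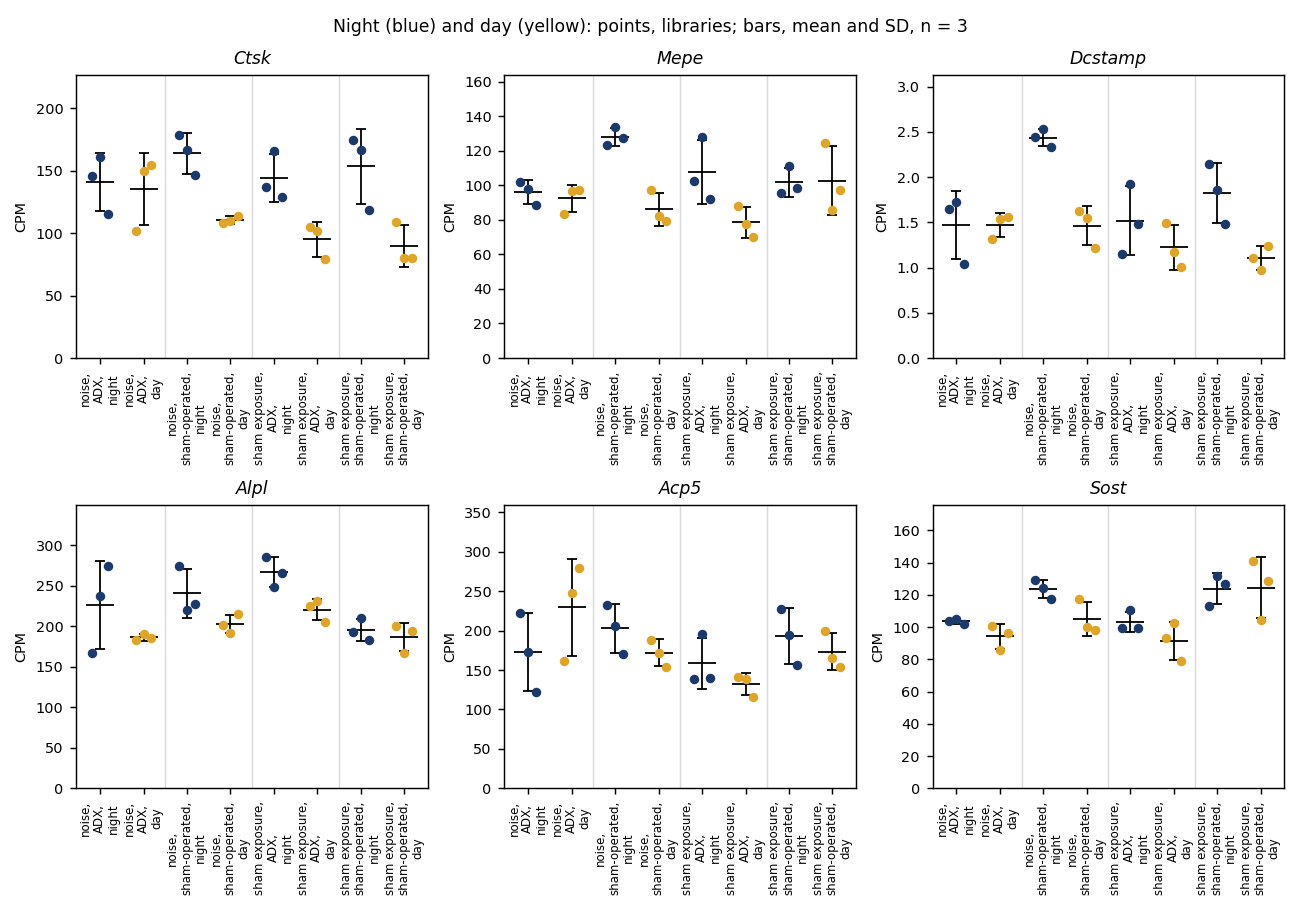
CPM (linear axes from 0) of Ctsk, Mepe, Dcstamp, Alpl, Acp5 and Sost in the 8 groups, night in blue left of day in yellow, with points for libraries and bars for mean and SD (n = 3). The night libraries of Ctsk lie above the day libraries in every pair but noise in ADX mice.

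Beside Ctsk and Mepe, 2 of 25 bone formation genes were higher by night when pooled and 0 lower, and 3 of 20 osteoclast pathway genes were higher and 1 lower, against 3.76% of all genes higher and 2.25% lower. None of the 18 cartilage genes passed in edgeR, and 3 were at an unadjusted p under 0.05, against 21.3% of all genes. Fgf23 had 23.7 ± 4.103 CPM by night, against 14.6 ± 2.199 CPM by day (mean ± SD, n = 12 each), and each night library lay above each day library. Its log2 fold change was 0.69 ± 0.0666 (SE, adjusted p = 2.12e-06), the smallest adjusted p of the pathway genes for time. Lrp4 rose by 0.21 ± 0.0346 (SE, adjusted p = 0.00092). Of the osteoclast pathway, Il34 (0.43 ± 0.0719 SE, adjusted p = 0.000984), the AP-1 repressor Jdp2 (0.20 ± 0.0393 SE, adjusted p = 0.00431) and the sodium-proton exchanger Slc9b2 (0.26 ± 0.0689 SE, adjusted p = 0.0274) rose. Trem2, a receptor of macrophages and osteoclast precursors, was lower (-0.34 ± 0.0925 SE, adjusted p = 0.0325). Of the 24 fits that each left out 1 library, 18 kept the pooled call of Slc9b2 and 14 that of Trem2, and the adjusted p of Trem2 was 0.141 without the day noise ADX libraries. In single pairs of sham-operated mice, Fgf23 and Il34 passed after sham exposure (0.63 ± 0.133 and 0.72 ± 0.144 SE, adjusted p = 0.0441 and 0.0355). After noise Fgf23, Il34 and Lrp4 passed (0.93 ± 0.133, 0.70 ± 0.144 and 0.29 ± 0.0692 SE, adjusted p = 0.000968, 0.02 and 0.04). When 1 library of the pair was left out at a time, the calls of Fgf23 and Il34 after sham exposure held in 1 of 6 fits each, and after noise those of Fgf23 held in 6, of Il34 in 2 and of Lrp4 in 0.

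Whether the noise response of these genes differed between surgeries or between night and day was tested directly. In the 4 interaction tests 0 of 33 genes passed, against 0% of all genes in 3 of them and 0.00602% for night against day in ADX mice. At an unadjusted p under 0.05 there were 4 of 33 genes for ADX against sham-operated by day, against 16.4% of all genes, and 9 by night, against 6.36%. For night against day there was 1 in sham-operated mice, against 7.3% of all genes, and there were 9 in ADX mice, against 11.7%. DESeq2 called Dmp1 in the last of these, against 0.138% of all genes, and 0 genes in the other 3, where its share of all genes was 0.0241% to 0.879%. Limma voom called 0 in all 4, against 0% to 1.59% of all genes. Without day noise ADX a, 2 genes passed for ADX against sham-operated by day and 1 for night against day in ADX mice. The share of all genes called without that library is not given. The noise response of Calcr differed by -1.81 ± 0.7197 (SE, adjusted p = 0.386) between night and day in ADX mice, and that of Dmp1 by -0.75 ± 0.174 (SE, adjusted p = 0.241). These were -2.29 ± 0.7605 (SE, adjusted p = 0.162) and -0.75 ± 0.191 (SE, adjusted p = 0.11) without night noise ADX a. Bglap differed by -1.05 ± 0.292 (SE, adjusted p = 0.749) between surgeries by night, or by -0.84 ± 0.266 (SE, adjusted p = 0.591) without night noise ADX a, and Acp5 by 0.81 ± 0.301 (SE, adjusted p = 0.208) between surgeries by day. The rise of Dmp1, Spp1, Acp5 and Calcr by day in ADX mice is therefore not shown to differ from the response of the other groups.

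**Figure D5:**
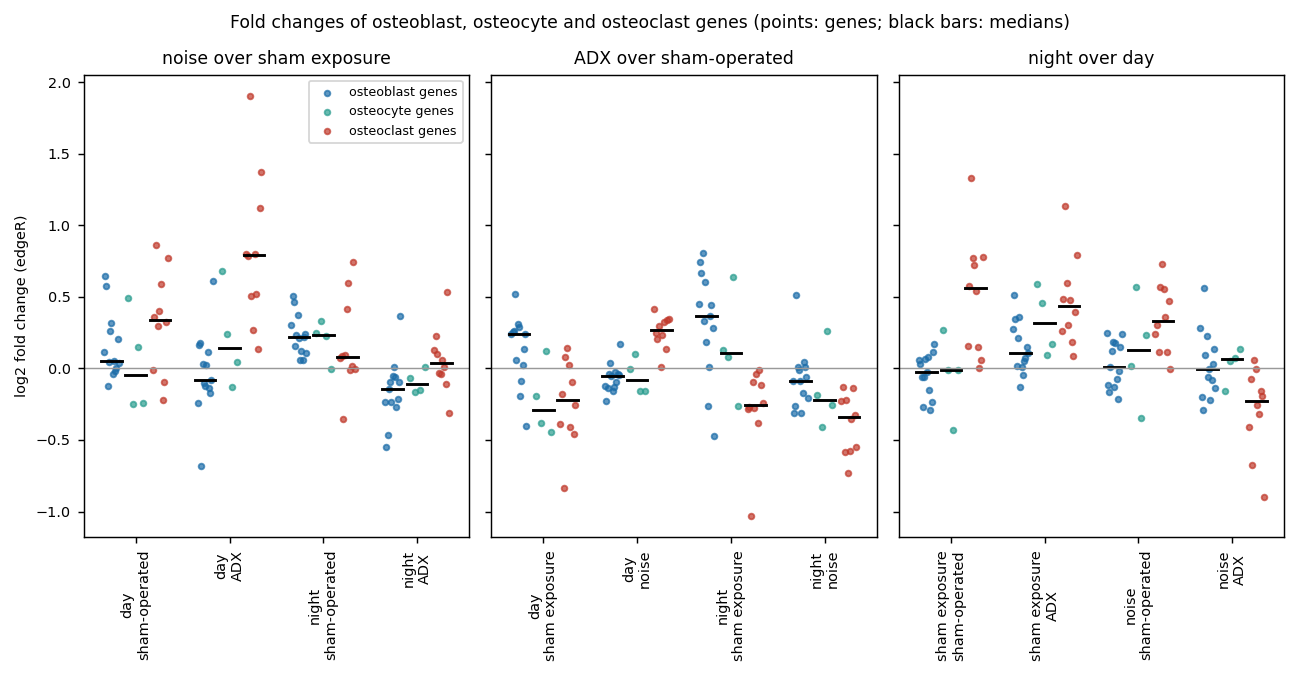
Log2 fold changes (vertical axis) of the osteoblast (blue), osteocyte (teal) and osteoclast (red) genes in the 12 pairs of groups, in panels for noise over sham exposure, ADX over sham-operated and night over day, with points for genes and black bars for medians. The osteoclast medians are 0.79 for day noise in ADX mice and 0.56 and 0.44 for night over day after sham exposure.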

How the data were processed

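Whole cochleae gave 24 stranded messenger RNA libraries of 50-base reads. The authors deposited a table of raw counts per gene symbol, made with TopHat2 2.0.11 and HTSeq 0.6p1 on mm10, per the submitters' processing notes. The annotation and the strand setting are not given in the sources used here. The table held 27 entries with names turned into dates, with 0.214% of counts, which were kept. Symbols were matched to GENCODE vM21 on GRCm38 for 22987 entries.

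The counts were fitted in edgeR 4.0.16 (R 4.3.3, limma 3.58.1) with TMM scaling, filterByExpr and robust quasi-likelihood, with 1 coefficient per group. Of 23420 entries 16607 were tested. There were 12 comparisons of group pairs, 3 pooled over pairs, 4 interactions and 1 test of any difference. Benjamini-Hochberg adjustment covered every tested gene, and genes with an adjusted p under 0.05 were called. Levels are CPM on TMM-scaled library sizes. Values in every library are given for genes called in any comparison and for the gene with the largest fold change in each role, and pathway genes past the threshold are named by smallest adjusted p, up to 6 per list and comparison. The genes, lists and tests were chosen with earlier results of these data known. Tested on simulated data for day noise in ADX mice (16524 genes), the fit recovered 73 of 100 genes changed 1.5-fold and 91 of 100 changed 2-fold, with 16 false calls. The changed genes were drawn above a floor on the mean count. The recovery therefore does not cover the scarce genes Calcr, Ocstamp, Oscar, Dcstamp, Matn1 and Tnfsf11, which lie below it. Alternatives were DESeq2 1.42.0, limma voom with library weights, RLE size factors, no filter, a replicate block, fits of the pair alone, and fits with libraries left out.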

Additional observations from a re-analysis of the deposited data

How the results depend on the processing

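Of the calls named for bone, osteoclast and cartilage genes, 17 in all, 4 held in every alternative run. Over 430 refitted values of these calls, 326 stayed past the threshold in the same direction, 104 no longer passed and 0 turned round. For 32 calls of pathway genes, 605 of 739 values stayed, 134 no longer passed and 0 turned round. The cause of the differences in count was not tested.

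DESeq2 called more of the 33 genes than the 4, 1, 0 or 2 given by edgeR in several comparisons, and than the 8 given by edgeR for any difference. Each count is followed by the share of all genes called. It called 10 for day noise in ADX mice (7.56%), 1 for day noise in sham-operated mice (0.741%), 1 for night noise in ADX mice (1.1%), 1 for ADX by day after sham exposure (1.08%), 8 by night after sham exposure (3.37%) and 6 pooled (5.24%). For night against day it called 1 after sham exposure in sham-operated (1.2%) and in ADX mice (0.205%), 2 after noise in sham-operated mice (2.77%) and 1 after noise in ADX mice (2.43%). For noise by period in ADX mice it called 1 (0.138%), and for any difference 23 (19.5%). Limma voom called 8 for day noise in ADX mice (8.46%), 1 (0.674%) and 10 (7.48%) for ADX by day and by night after sham exposure, 4 for ADX pooled (5.4%), and 1 for night against day after sham exposure in sham-operated (2.47%) and in ADX mice (0.229%). A fit of the pair alone called 2 for day noise in ADX mice (2.54%) and 3 for ADX by night after sham exposure (2.11%). For night against day it called 1 after sham exposure in ADX mice (0.0808%) and 2 after noise in sham-operated mice (0.193%). Without a filter on low counts, ADX by night after sham exposure gave 0 (1.12%).

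Without the 3 libraries with pituitary or cerebellar transcripts the counts, again with the share of all genes called, were 1 (0.437%) and 7 (2.39%) for ADX by day and by night after sham exposure. For ADX they were 1 by night after noise (0.198%) and 5 pooled (4.02%). They were 1 for night against day after sham exposure in sham-operated mice (0.198%), 0 after noise in sham-operated mice (0.629%) and 2 after noise in ADX mice (1.76%). For noise pooled the count was 2 (3.53%). Without the 3 day noise ADX libraries, an alternative chosen after seeing the data, the counts were 1 for noise pooled (2.31%) and 8 for ADX pooled (7.39%). Without night noise ADX a as well, also chosen after seeing the data, they were 0 for noise pooled (2.28%) and 16 for ADX pooled (11.9%). They were 8 for night pooled (5.5%) and 16 for any difference (9.73%).

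Leaving out 1 library at a time gave 1 to 12 for day noise in ADX mice, 0 to 1 for ADX by day and by night after sham exposure, 0 to 3 by night after noise and 2 to 7 pooled. It gave 0 to 1 for night against day after noise in sham-operated mice, 0 to 4 in ADX mice and 2 to 5 pooled, and 3 to 7 for noise pooled. For noise by surgery by day it gave 0 to 2, for noise by period in ADX mice 0 to 1, and for any difference 6 to 14. The share of all genes called in each of these fits is not given, so the ranges are not compared with it.

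The letters a, b and c were not shown to pair libraries, since same-letter libraries correlated over 0.1 for all 3 letters in 1 of 12 pairs of groups. With a replicate block for the letter, the counts, with the share of all genes called, were 4 for day noise in ADX mice (3.31%) and 0 for ADX by night after sham exposure (1.3%). They were 6 for noise pooled (4.65%), 3 for ADX pooled (2.94%), 3 for night pooled (5.95%) and 9 for any difference (7.73%).

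With 3 libraries per group, changes of the scarce genes Calcr, Ocstamp, Oscar, Dcstamp, Matn1 and Tnfsf11 rest on few reads, and Matn3 could not be tested.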
